A study of Mus musculus with 6 samples.

Results

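The genes described here are the semaphorins, their plexin receptors, the Eph receptors and the ephrins, measured in the hypothalamus of adult female mice. Members were chosen by gene symbol alone, as every gene named Sema3 to Sema7, Plxna to Plxnd, Epha or Ephb, and Efna or Efnb on a probeset with 1 annotated gene. This gave 50 genes of the 17072 genes with such a probeset, namely 20 semaphorins, 9 plexins, 13 Eph receptors and 8 ephrins. Ephb2 was not analysed here. Hypothalamic RNA was measured on 6 Affymetrix Mouse Gene 1.0 ST arrays, 3 from control mice (CON) and 3 from mice with developmental NMDAR antagonism (CGP). All mice were C57Bl/6J females of 21 weeks, and the RNA of 18 mice was pooled in each group. Mothers of the CGP mice received the competitive NMDA receptor antagonist CGP 39551 by mouth at 5 mg/Kg from pregnancy until weaning. The study's article describes this scheme for male offspring, whose RNA was combined into 1 pool a group and put on the arrays in triplicate. The labels of these female arrays do not say whether they too are repeats of 1 pool. The p-values therefore measure only how far arrays of a group differ, possibly for technical reasons, and not how far mice differ. Signals are log2 values, on which a difference of 1 is a 2-fold change.

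Semaphorins and ephrins are guidance signals that steer growing axons and migrating cells, mostly by repulsion. Class 3 semaphorins are secreted and act through a receptor complex of a neuropilin, which binds the ligand, and a plexin, which carries the signal, whereas semaphorins of classes 4 to 6 span the membrane, Sema7a is anchored to it by a lipid, and most of these bind plexins directly. Ephrins are membrane bound too, the A class by a lipid anchor and the B class by a transmembrane segment, and they activate the Eph receptor tyrosine kinases of neighbouring cells. In the hypothalamus, semaphorin signalling is known for its part in the migration of GnRH neurons and in the wiring of feeding circuits. In the adult brain the families remain expressed, among other places at synapses, in vessels and in glia.

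The treatment text of the labels names the adrenal gland as the harvested tissue, while their titles, source and extraction text name the hypothalamus. All 18 hypothalamic marker genes measured, among them those of oxytocin, orexin and vasopressin, lay above the signal filter of 6, as did 18239 of all 18690 probesets with 1 gene, so that passing it says little of the tissue. The mean log2 signals of Oxt, Hcrt and Avp, which encode these peptides in the order named, were 12.16, 12.51 and 10.98 in CON. Over the 18 genes the mean signal was 9.63 to 9.67 on the CON arrays and 9.59 to 9.63 on the CGP arrays. Over the 18239 probesets tested, arrays correlated at 0.9973 to 0.9983 within a group. On the second principal component CGP replicate 1 stood apart from the other arrays (-9.67, against -0.01 to 4.78). Some results without it are given below.

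All 50 genes lay above the signal filter, and none of them passed the test between CGP and CON. Over all probesets tested, 0.154% passed an adjusted p of 0.05 (limma) as higher in CGP and 0.126% as lower, 0.28% in all, and 0.0493% passed with a change of at least 1.4-fold. Without adjustment, 4 members had a p under 0.05 in limma as higher in CGP and 4 as lower, which is 16% of the members against 11.1% of all probesets (5.25% higher and 5.83% lower). The 4 higher were Sema4g, Epha3, Epha7 and Ephb6, and the 4 lower were Sema3a, Sema3c, Sema3d and Ephb1. The lowest adjusted p was 0.172, that of Sema3d. The counts of 4 changed with 1 array left out. The higher count was 2 without CON replicate 1 or CON replicate 2, and 3 without CGP replicate 3. It was 1 without CON replicate 3, CGP replicate 1 or CGP replicate 2. The lower count was 2 without CON replicate 1 and 3 to 5 without any other array. Fewer genes pass with fewer arrays: of all probesets, 6 to 10 then passed the adjusted p in limma, against 51 with every array. Without CGP replicate 1, the higher member was Epha1, and Sema4g, Epha3, Epha7 and Ephb6 were no longer among them. Sema4a then joined the lower ones. Ordinary tests without moderated variance gave 0 members past the adjusted p as well.

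For all 50 members the 95% interval of the difference, taken gene by gene from limma, lay within a 1.4-fold change either way (0.485 on the log2 scale), as it did for 99.6% of all probesets tested, so that this is no result about the members. The intervals cover differences between arrays and do not bound those between mice. The interval limit farthest from 0 among the members was -0.343, that of Sema3a, which is a 1.27-fold lower signal. For the plexins no limit lay farther from 0 than 0.166, a 1.12-fold change. In 12 of the 50 genes the arrays of the groups did not overlap, 5 of them higher and 7 lower in CGP, which is 24% of the members against 17.5% of all probesets (7.59% higher and 9.95% lower). With 3 arrays against 3, the smallest p of a two-sided exact permutation test is 0.1.

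**Figure D1:**
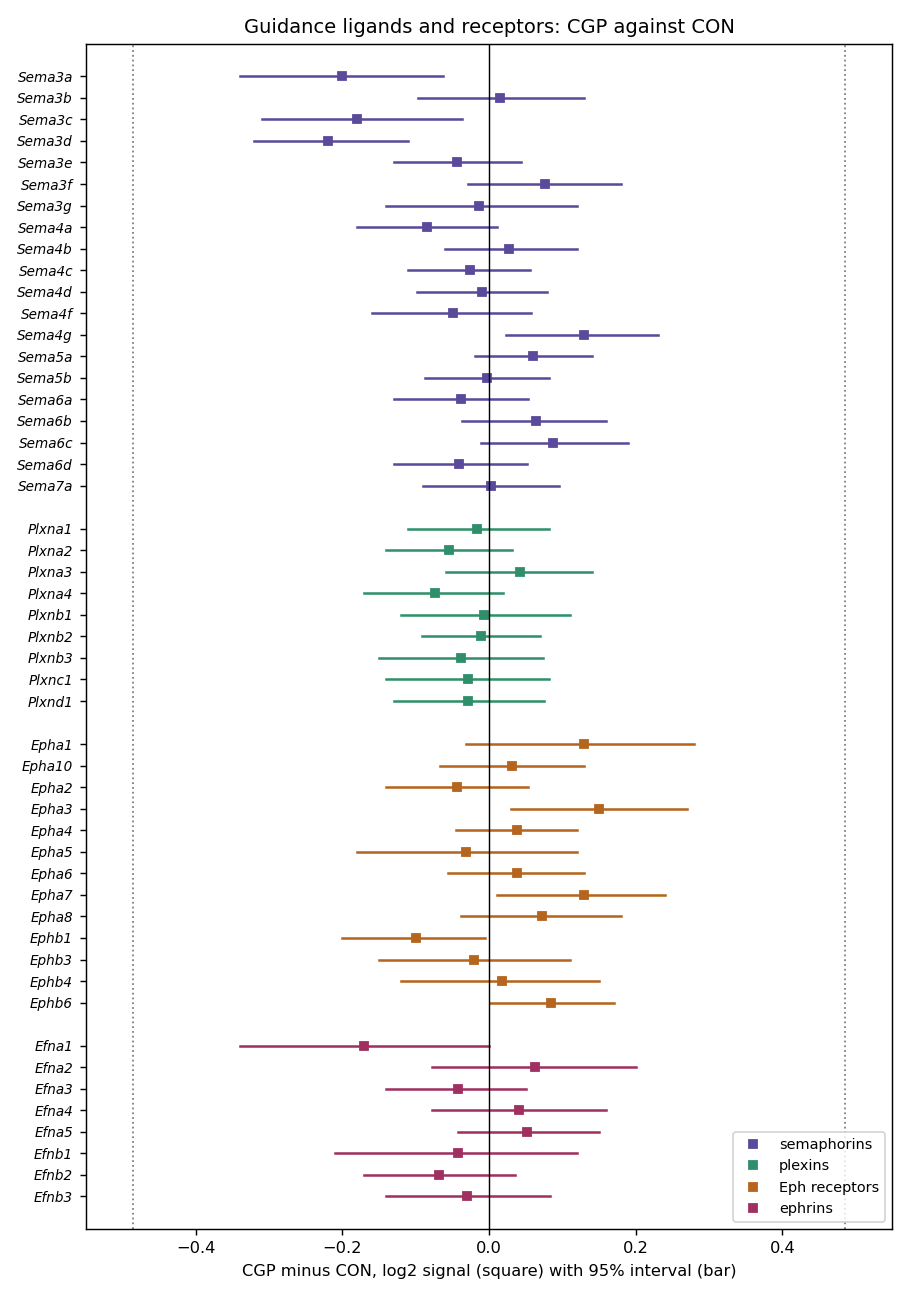
Difference between CGP and CON for the 50 genes. The horizontal axis is CGP minus CON in log2 signal, squares are the differences, bars their 95% intervals from limma, colours the 4 families, and the dotted lines a 1.4-fold change either way. Every bar lies between the dotted lines, and the lowest squares are those of Sema3d (-0.22), Sema3a (-0.20) and Sema3c (-0.18).

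Among the 7 class 3 semaphorins, the secreted ligands of the neuropilins, Sema3d, Sema3a and Sema3c had the largest differences of all members. Each had a lower signal on every CGP array than on any CON array, as did 9.95% of all probesets. Sema3d, a ligand known from the guidance of axons and of neural crest and endothelial cells, had signals of 7.34, 7.21 and 7.24 on the CON arrays and of 7.09, 7.07 and 7.0 on the CGP arrays. This is a difference of -0.22 (standard error, SE, 0.0468, 95% interval -0.32 to -0.11, adjusted p = 0.172, limma), a 1.16-fold lower signal. All 3 CGP values lie close together below the CON values, and the difference lay between -0.243 and -0.178 in the 15 alternative analyses, in which the adjusted p lay between 0.101 and 0.464. Sema3a, the prototype repellent that collapses growth cones through neuropilin 1 and A plexins, was at 6.95, 7.20 and 7.04 in CON and at 6.85, 6.87 and 6.86 in CGP (difference -0.20, SE 0.0609, 95% interval -0.34 to -0.0623, adjusted p = 0.321, limma). Here the CON arrays were spread (SD 0.126) and the CGP arrays were nearly equal (SD 0.00778, n = 3 each). The difference was largest with CON replicate 1 left out (-0.258) and smallest with CON replicate 2 left out (-0.134). Sema3c, which attracts or repels axons depending on the cell and acts in heart outflow and vessel development, was at 8.21, 8.12 and 8.12 in CON and at 8.09, 7.86 and 7.98 in CGP (difference -0.18, SE 0.0601, 95% interval -0.31 to -0.0369, adjusted p = 0.374, limma). CGP replicate 1 lay just under the CON arrays, and CGP replicate 2 lay farthest below them.

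The other 4 class 3 genes overlapped between the groups. Sema3e, which unlike its relatives can bind plexin D1 without a neuropilin, differed by -0.0443 (95% interval -0.13 to 0.0432), Sema3g, known from endothelium, by -0.0139, Sema3b by 0.0154 and Sema3f, the main ligand of neuropilin 2, by 0.0758 (95% interval -0.0292 to 0.18). Their adjusted p values lay between 0.58 and 0.951 (limma). Taken as a class, 5 of 7 differences were below 0 with a median of -0.0443, against 52.1% of all probesets and a median of -0.00311.

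**Figure D2:**
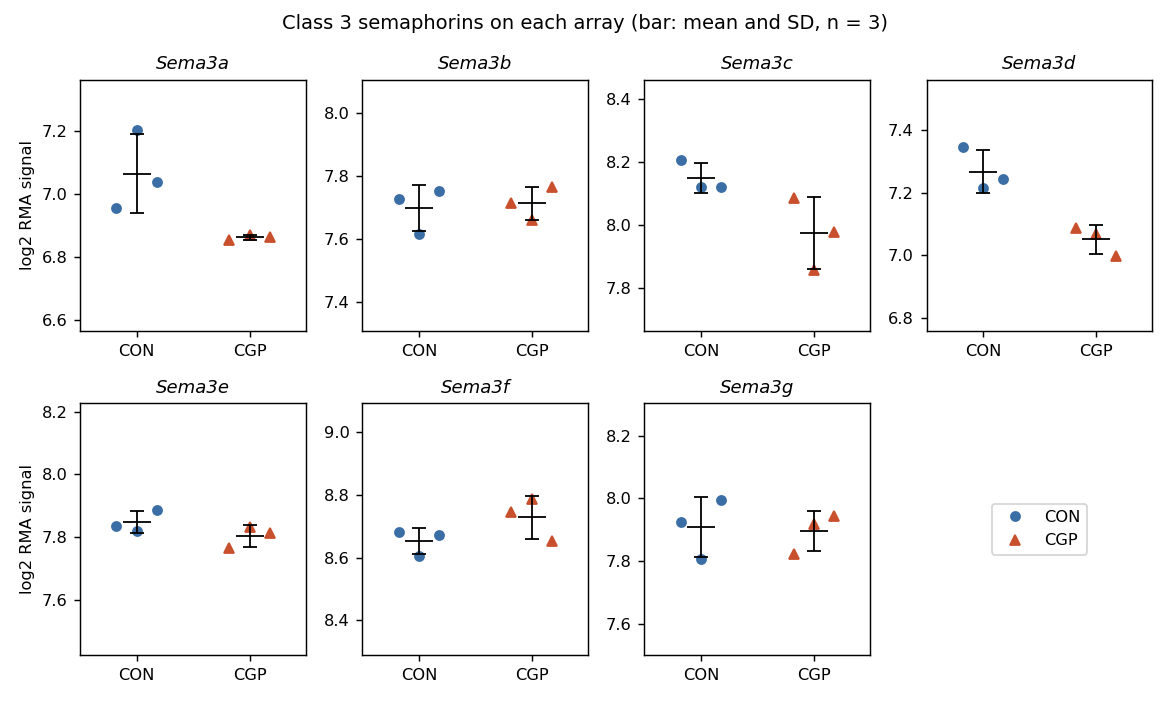
Class 3 semaphorins on each array. The vertical axes are log2 RMA signals over the same range of 0.8 for each gene, circles are CON arrays and triangles CGP arrays, and the black ticks and bars are the mean and SD of 3 arrays. The triangles lie below all circles for Sema3a, Sema3c and Sema3d, and overlap with them for the other genes.

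Sema3d and Sema3a are direct neighbours in the order of protein-coding genes on mouse chromosome 5, with 0 such genes between them in RefSeq (GRCm38.p6). Sema3e follows after 3 other genes and Sema3c after another 15. None of these genes passed the test. The 250 bases before the RefSeq start of each are shown to describe their base composition. Whether these windows bear on the differences between CGP and CON was not tested. They are on the + strand of GRCm38.p6 at chr5:12382916-12383165 for Sema3d, chr5:13396534-13396783 for Sema3a, chr5:14025026-14025275 for Sema3e and chr5:17574566-17574815 for Sema3c, written 5′ to 3′ with every CG dinucleotide in capitals.
Sema3d: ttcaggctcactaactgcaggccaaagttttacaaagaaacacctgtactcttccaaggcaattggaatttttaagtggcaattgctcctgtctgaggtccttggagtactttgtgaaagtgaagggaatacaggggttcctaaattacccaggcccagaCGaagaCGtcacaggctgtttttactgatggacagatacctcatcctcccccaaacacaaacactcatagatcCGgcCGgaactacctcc
Sema3a: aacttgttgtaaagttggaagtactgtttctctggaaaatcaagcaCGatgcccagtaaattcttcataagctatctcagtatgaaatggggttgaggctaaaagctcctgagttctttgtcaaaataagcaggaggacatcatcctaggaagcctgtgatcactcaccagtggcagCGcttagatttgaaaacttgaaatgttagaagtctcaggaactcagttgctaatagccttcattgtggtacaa
Sema3e: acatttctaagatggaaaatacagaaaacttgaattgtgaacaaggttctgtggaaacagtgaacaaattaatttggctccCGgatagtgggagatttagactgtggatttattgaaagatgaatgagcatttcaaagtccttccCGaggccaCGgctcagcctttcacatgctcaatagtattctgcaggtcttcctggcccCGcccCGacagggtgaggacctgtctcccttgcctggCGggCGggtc
Sema3c: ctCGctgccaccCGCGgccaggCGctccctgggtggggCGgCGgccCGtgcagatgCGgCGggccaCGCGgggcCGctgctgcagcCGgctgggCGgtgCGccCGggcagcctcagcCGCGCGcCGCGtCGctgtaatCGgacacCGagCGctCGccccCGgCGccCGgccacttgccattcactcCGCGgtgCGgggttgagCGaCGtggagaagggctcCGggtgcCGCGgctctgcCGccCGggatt
The windows of Sema3a and Sema3d hold 2 and 4 CG dinucleotides, that of Sema3e 7 and that of Sema3c 39, against a median of 6 over the 32851 windows of the same length in RefSeq. As many CG dinucleotides as in the Sema3c window were found in 1.56% of all windows. The letters GGGCGG, searched on both strands, are in the windows of Sema3e and Sema3c and in 32.7% of all windows, CCAAT is in that of Sema3d and in 33.8%, and TATAAA is in none of these windows and in 12.4%. RefSeq gives a window for 44 of the 50 members, and which start is used in the hypothalamus was not measured.

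Markers of meninges and fibroblasts, where class 3 semaphorins such as Sema3a are also made, were lower in CGP too. Of the 14 markers measured, 6 fell (limma, adjusted p under 0.05) and 0 rose, and their mean signal was 8.70, 8.70 and 8.68 on the CON arrays and 8.49, 8.49 and 8.43 on the CGP arrays. All 14 lay above the signal filter. This list and the other marker lists were chosen with earlier results of these data known, so that they are no independent support. The collagen genes Col1a1, Col1a2 and Col3a1 of that list differed by -0.0145, 0.00403 and 0.0245. Endothelial and pericyte markers were at 8.85 to 8.87 in CON and 8.74 to 8.80 in CGP, with 1 of 9 lower past the test. Their part in the differences of Sema3a, Sema3c and Sema3d was not tested. In pooled tissue, fewer cells of a type and less RNA per cell cannot be told apart.

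Class 4 to 7 semaphorins are membrane bound, and among them only Sema4g and Sema5a had CGP arrays that did not overlap the CON arrays. Of all probesets 17.5% did not overlap, 7.59% as higher and 9.95% as lower in CGP. Sema4g was at 9.02, 8.91 and 8.88 in CON and at 9.08, 9.07 and 9.04 in CGP (difference 0.13, SE 0.0451, 95% interval 0.0224 to 0.23, adjusted p = 0.396, limma). CON replicate 1 lay just below the CGP arrays. Sema5a, whose thrombospondin repeats set class 5 apart and which can attract or repel axons, was at 10.07, 10.03 and 10.07 in CON and at 10.12, 10.13 and 10.09 in CGP. Its difference of 0.0592 (SE 0.0343, adjusted p = 0.567, limma) is a 1.04-fold higher signal. Sema5b differed by -0.00285.

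Sema6c, of the class that signals through A plexins, was at 8.46, 8.50 and 8.58 in CON and at 8.61, 8.56 and 8.63 in CGP (difference 0.0878, SE 0.0427, adjusted p = 0.506, limma). One CGP array lay below the highest CON array, so that the groups overlapped. Sema7a, which promotes axon growth through integrins and also binds plexin C1, had signals of 10.05, 9.98 and 10.10 in CON and of 10.05, 10.04 and 10.05 in CGP. Its difference of 0.0026 had a 95% interval of -0.0903 to 0.0955 (adjusted p = 0.99, limma). Sema4a, known from immune cells and retina, was lower by the next largest amount in class 4 (-0.0842, 95% interval -0.18 to 0.0114, adjusted p = 0.51, limma). The remaining members of these classes overlapped between the groups: Sema4b differed by 0.0274, Sema4c by -0.0259, Sema4d, the ligand of plexin B1 made by oligodendrocytes and lymphocytes, by -0.0091, Sema4f by -0.0498, Sema6a by -0.038, Sema6b by 0.0639 and Sema6d by -0.0413. Of these, Sema4d had a second probeset, which differed by 0.0175. The 2 probesets of Sema6b had equal values on every array and list the same transcripts, so that they count once.

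The 9 plexins, the signalling receptors of the semaphorins, showed the smallest differences of the 4 families. Their median size was 0.029 against 0.0446 over all probesets. The plexins also had a higher median signal (9.69 against 8.51) and a lower median SD in CON (0.0315 against 0.0495) than all probesets. The part of this in their small differences was not tested. Plxna4, a receptor of Sema3a and of class 6 semaphorins, was at 10.39, 10.28 and 10.32 in CON and at 10.26, 10.28 and 10.23 in CGP. The highest CGP array lay just below the lowest CON array, and the difference was -0.0736 (SE 0.0401, 95% interval -0.17 to 0.0189, adjusted p = 0.547, limma). Plxna2 did not overlap either, with a CON mean of 9.72 and a CGP mean of 9.66 and a difference of -0.0541. Plxna1, which also pairs with neuropilin 1, differed by -0.0162 and Plxna3 by 0.0423, the only plexin with a higher mean in CGP.

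Plxnb3, a receptor of Sema5a known from oligodendrocytes, was at 9.03, 8.89 and 9.0 in CON and at 8.97, 8.96 and 8.88 in CGP, a difference of -0.0379. Plxnb1 and Plxnb2 differed by -0.00676 and -0.0111. Plxnc1, the receptor of Sema7a, was at 10.26, 10.25 and 10.25 in CON and at 10.32, 10.16 and 10.2 in CGP, so that only its CGP arrays were spread (SD 0.0861 against 0.00566, n = 3 each). Its difference was -0.0283, and -0.0764 without CGP replicate 1. Plxnd1, the receptor of Sema3e in vessels, was at 8.71, 8.65 and 8.65 in CON and at 8.71, 8.65 and 8.57 in CGP (difference -0.029). Of the 9 plexins 8 had a lower mean in CGP, where 52.1% of all probesets had one, and 0 had an unadjusted p under 0.05 in limma. On the CGP arrays the median deviation of the plexins from their CON means was 0.0175, -0.0138 and -0.092, so that the lower values came mainly from CGP replicate 3.

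Of the neuropilins and other receptors outside the plexin family, 3 of 13 measured had a higher mean in CGP and 10 a lower one. Of all probesets 52.1% had a lower one. The differences ran from -0.141 to 0.0838, and 2 genes had an unadjusted p under 0.05 in limma, both lower. Of all probesets 5.83% were lower with such a p, and 11.1% had one in either direction. Nrp1, which binds Sema3a and VEGF, was at 8.47, 8.54 and 8.38 in CON and at 8.38, 8.41 and 8.33 in CGP (difference -0.094, 95% interval -0.20 to 0.0167, adjusted p = 0.519, limma), and Nrp2, which binds Sema3f and Sema3c, differed by -0.0354. The integrin genes Itga1 (-0.14, adjusted p = 0.385) and Itgb1 (-0.11, adjusted p = 0.358, limma), subunits of the Sema7a receptor, had the largest differences in this list. Both were below every CON array on every CGP array, Itga1 only in the third decimal (6.94 in CON replicate 1 and CGP replicate 2). No gene of this list passed the test.

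Of the 13 Eph receptors, 9 had a higher mean in CGP and 4 a lower one, with a median difference of 0.0377, while 47.9% of all probesets were higher. Epha3, a receptor of the A ephrins with a known role in the guidance of retinal axons, was at 6.31, 6.22 and 6.16 in CON and at 6.44, 6.31 and 6.39 in CGP (difference 0.15, SE 0.0516, 95% interval 0.0304 to 0.27, adjusted p = 0.378, limma). CGP replicate 2 lay almost level with CON replicate 1, and all signals were close to the filter of 6. Epha7, known from the patterning of cortex and thalamus, was at 9.03, 9.08 and 9.05 in CON and at 9.28, 9.16 and 9.10 in CGP (difference 0.13, SE 0.0498, adjusted p = 0.421, limma). The CGP arrays were spread more widely (SD 0.0887) than the CON arrays (SD 0.0273, n = 3 each), and CGP replicate 1 was the highest. Without CGP replicate 1 the difference fell to its lowest value, 0.0777. Of the other A receptors, Epha1 differed by 0.13, with CGP replicate 3 at 6.93 and the other arrays at 6.61 to 6.71, Epha8 by 0.0718, Epha6 by 0.0382, Epha4, which binds ephrins of both classes, by 0.0377, Epha10, which lacks kinase activity, by 0.0318, Epha5 by -0.0316 and Epha2 by -0.0437. None of these 7 had an unadjusted p under 0.05 in limma with every array, but Epha1 had one without CGP replicate 1.

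Ephb1, a receptor of the B ephrins known from the routing of retinal axons at the optic chiasm, was at 8.57, 8.58 and 8.59 in CON and at 8.52, 8.51 and 8.40 in CGP (difference -0.10, SE 0.0424, adjusted p = 0.433, limma). The CON arrays were nearly equal, and CGP replicate 3 lay lowest. A second, dimmer Ephb1 probeset, which the annotation pairs with 1 accession, went the other way, with 7.32, 7.02 and 7.17 in CON and 7.27, 7.36 and 7.35 in CGP (difference 0.16, adjusted p = 0.478, limma). The mean of these probesets differed by 0.0273, so that no direction can be given for Ephb1 as a gene. Ephb6, whose kinase domain is inactive, was at 8.78, 8.83 and 8.77 in CON and at 8.88, 8.89 and 8.86 in CGP. Its arrays were tight in both groups, and its difference of 0.0847 (SE 0.0362, adjusted p = 0.446, limma) is a 1.06-fold higher signal. Ephb3 and Ephb4, the latter a marker of venous endothelium, differed by -0.0206 and 0.0175.

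Among the 8 ephrins, Efna1 had the largest difference. Efna1, an A ephrin known from vessels and induced by inflammatory signals, was at 7.5, 7.73 and 7.44 in CON and at 7.40, 7.43 and 7.33 in CGP (difference -0.17, SE 0.0732, 95% interval -0.34 to 0.000378, adjusted p = 0.451, limma). The groups did not overlap, but CON replicate 2 stood above all other arrays, and without it the difference was -0.082. Efna3 and Efna4 follow Efna1 on chromosome 3 with 0 protein-coding genes between them, and they differed by -0.0428 and 0.0405. Efna2 and Efna5, which set up topographic maps through EphA receptors, differed by 0.0624 and 0.052. Efnb2, the ephrin of arterial endothelium and a partner of Ephb4, was at 9.20, 9.24 and 9.29 in CON and at 9.16, 9.12 and 9.24 in CGP (difference -0.069, SE 0.0451, adjusted p = 0.615, limma), with overlapping arrays. Efnb1 (-0.0418) and Efnb3 (-0.0305), the midline ephrin, overlapped as well. No ephrin had an unadjusted p under 0.05 in limma.

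**Figure D3:**
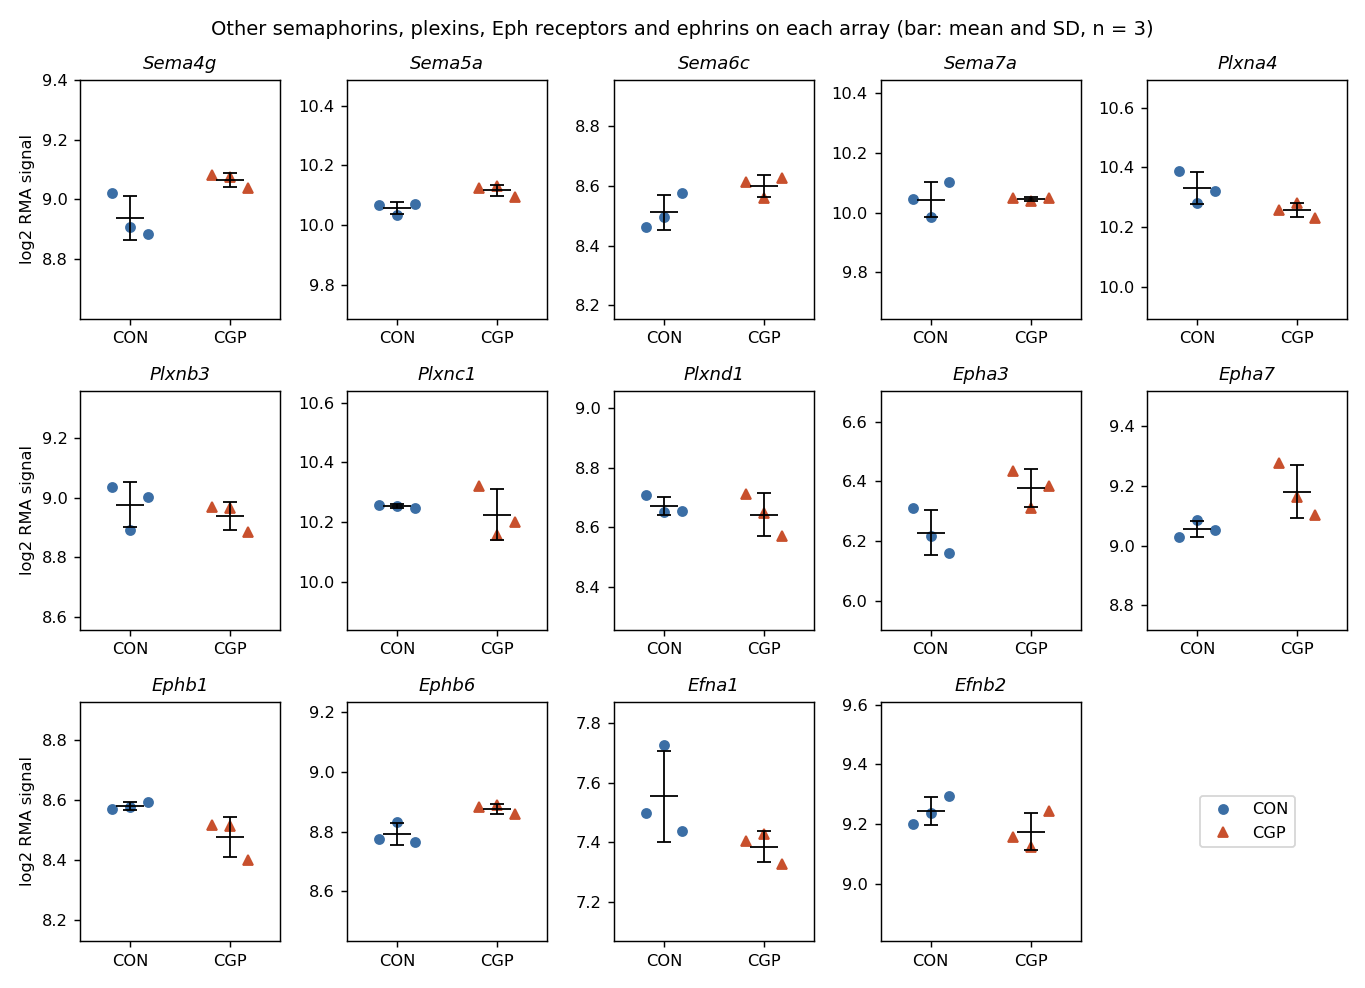
The other 14 genes for which every array is given. The vertical axes are log2 RMA signals over the same range of 0.8 for each gene, circles are CON arrays and triangles CGP arrays, and the black ticks and bars are the mean and SD of 3 arrays. The groups lie apart for Sema4g, Sema5a, Plxna4, Epha3, Epha7, Ephb1, Ephb6 and Efna1, and overlap for the rest.

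Seen as families, the median differences were -0.0115 for the semaphorins, -0.0283 for the plexins, 0.0377 for the Eph receptors and -0.0361 for the ephrins, beside -0.00311 for all probesets. Single members had a median standard deviation between arrays of 0.0452 in CON and 0.0547 in CGP, beside 0.0495 and 0.0534 for all probesets. For the Eph receptors, the median deviation from the CON means was 0.0641, 0.0644 and 0.0089 on the CGP arrays and -0.0174, -0.00531 and 0.00105 on the CON arrays, so that the 3 CGP medians were the highest, that of replicate 3 by little. Without CGP replicate 1 the median of the Eph receptors was 0.0156, that of the plexins -0.0522 and that of the ephrins 0.00508, and without CON replicate 2 that of the semaphorins was -0.038. These medians describe the families, and no test was made of them.

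**Figure D4:**
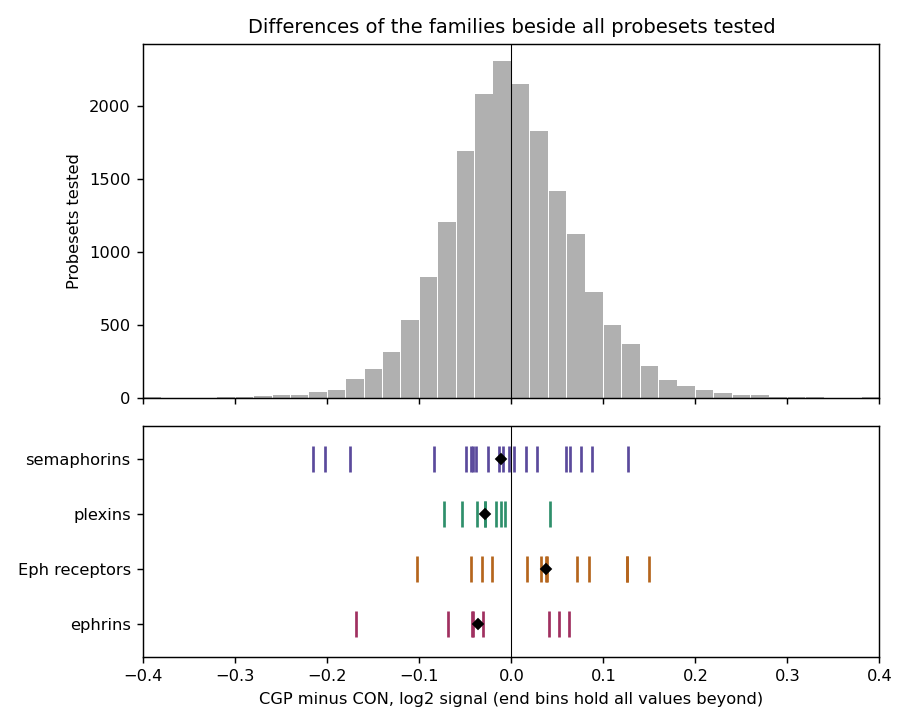
Differences of the 4 families beside those of all probesets tested. The upper part counts the 18239 probesets by CGP minus CON in log2 signal in bins of 0.02, and in the lower part each upright mark is a gene and each diamond the median of its family. The medians lie between -0.0361 and 0.0377, and the single genes between -0.216 (Sema3d) and 0.149 (Epha3).

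Mean signals of the members over the 6 arrays ranged from 6.96 to 10.48 for the semaphorins, from 8.66 to 10.48 for the plexins, from 6.30 to 9.66 for the Eph receptors and from 7.13 to 10.35 for the ephrins. Probesets differ in how strongly they bind, so that these ranges do not rank the genes. The class 3 semaphorins with the largest differences, Sema3a (6.96) and Sema3d (7.16), and Epha3 (6.30) had signals near the filter.

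No plexin, neuropilin or ephrin had an unadjusted p under 0.05 in limma. A pair of a ligand and a receptor that holds one of these could therefore not have it in both. Some known pairs are set side by side here as description only. Sema3a (-0.20) stood beside Nrp1 (-0.094), Plxna1 (-0.0162) and Plxna4 (-0.0736). Sema3e (-0.0443) stood beside Plxnd1 (-0.029), Sema4d (-0.0091) beside Plxnb1 (-0.00676), and Sema7a (0.0026) beside Plxnc1 (-0.0283). For the ephrins, Efnb2 (-0.069) stood beside Ephb4 (0.0175), and Efna5 (0.052) beside Epha3 (0.15), Epha5 (-0.0316) and Epha7 (0.13).

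Other genes of axon guidance were described from 6 lists that hold 95 genes in all, of which 93 were measured and tested. None passed the test, and without adjustment 8 had a p under 0.05 in limma as higher and 5 as lower, 14% of the genes against 11.1% of all probesets. In the list of 27 genes that carry plexin and semaphorin signals, 0 had an unadjusted p under 0.05, and the largest differences were those of Rras2 (-0.085) and Rnd2 (-0.0837). Of 28 genes downstream of Eph and ephrin, 5 were higher and 2 lower without adjustment. Vav3, an exchange factor recruited by Eph receptors, was at 8.22, 8.29 and 8.22 in CON and at 8.51, 8.44 and 8.31 in CGP (difference 0.18, adjusted p = 0.331, limma), and Rgs3, which links B ephrins to G protein signals, differed by 0.17 (adjusted p = 0.292).

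Among the netrin, slit and RGM genes, which are other guidance families, Robo3 differed by more than any member did. Robo3, the receptor that lets commissural axons cross the midline, was at 6.62, 6.72 and 6.61 in CON and at 7.04, 6.88 and 6.94 in CGP (difference 0.31, SE 0.0528, adjusted p = 0.0832, limma). Ntng1, netrin G1, a membrane protein of thalamic axons, was at 11.11, 11.17 and 11.08 in CON and at 11.29, 11.32 and 11.35 in CGP (difference 0.20, SE 0.0388, adjusted p = 0.118, limma). With a trended and robust prior variance Robo3 (adjusted p = 0.0463) and Ntng1 (adjusted p = 0.00131) passed in limma. With that setting 249 of all probesets passed, against 51 in the main fit. The mean signal of Robo3 was 6.80, near the filter, and it was not tested with a filter at 7. With 1 array left out, the adjusted p in limma was 0.136 to 0.327 for Robo3 and 0.154 to 0.398 for Ntng1. Both are known from the thalamus or the habenula, and the thalamus list of 9 markers was higher in CGP, with 3 past the test and a mean signal of 9.67 to 9.72 in CON and 9.88 to 9.91 in CGP. The habenula list of 6 markers was at 8.67 to 8.70 and at 8.86 to 8.93, with 0 past the test. Their part in the differences of Robo3 and Ntng1 was not tested. Slit2, a repellent ligand of the Robo receptors, differed by -0.14 (adjusted p = 0.277), Ntn1 by -0.10 (adjusted p = 0.51), the RGM gene Hjv by 0.0924 and Rgmb by -0.032 (adjusted p = 0.64 and 0.825, limma).

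Markers of other tissues and cell types also differed between the groups. Mean signals were higher on every CGP array than on any CON array for choroid plexus (7.90 to 7.92 in CON and 8.14 to 8.20 in CGP, 2 of 11 genes past the test), anterior pituitary (9.78 to 9.84 and 10.01 to 10.04, 2 of 7), striatum and cortex. They were lower on every CGP array for olfactory mucosa (7.6 to 7.72 and 7.25 to 7.26, 3 of 8 genes), midbrain dopamine neurons (9.11 to 9.13 and 8.93 to 8.98, 1 of 12), microglia (8.89 to 8.90 and 8.81 to 8.84, 0 of 7), oligodendrocytes (11.24 to 11.28 and 11.18 to 11.21, 0 of 7) and astrocytes (10.97 to 10.99 and 10.88 to 10.96, 0 of 6). Of the olfactory genes past the test, Scgb1c1 and Cyp2g1 had CGP means below the filter of 6 (5.81 and 5.95). These genes passed the filter only through their CON values. Gng8 of the same list was higher in CGP (0.25, adjusted p = 0.157, limma). Neuronal markers overlapped, at 11.78 to 11.82 in CON and 11.80 to 11.81 in CGP. What part these shifts had in the differences of single guidance genes was not tested.

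**Figure D5:**
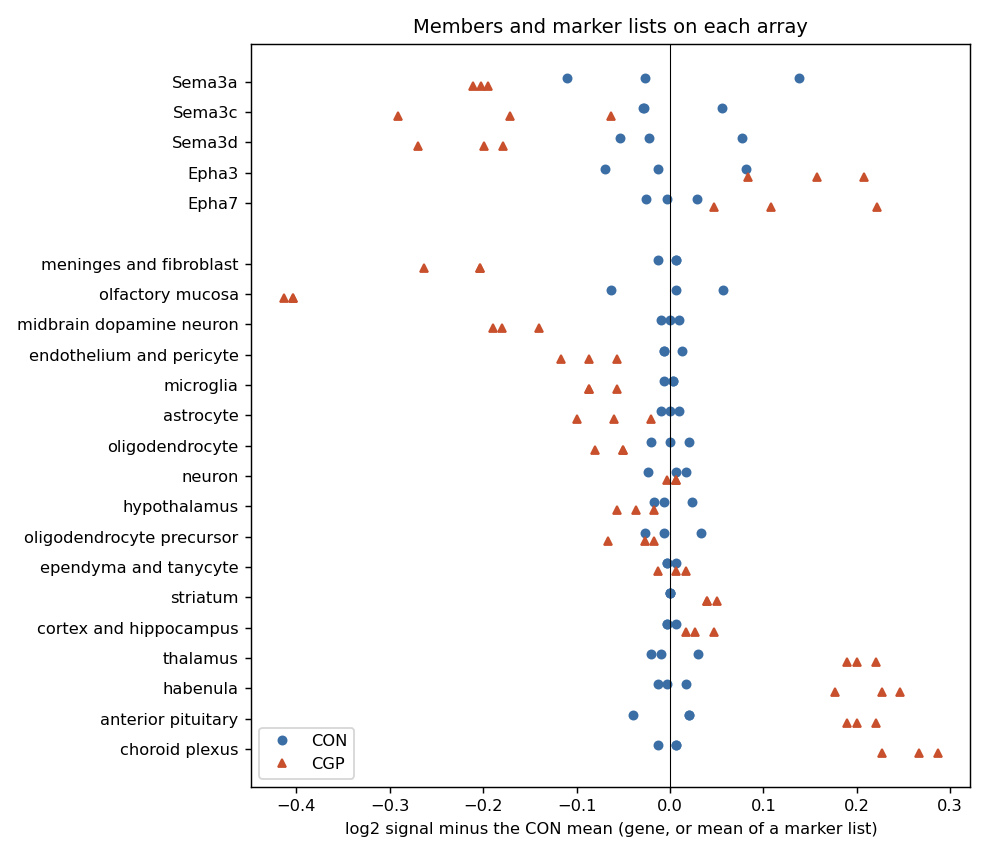
Members and marker lists on each array. The horizontal axis is the log2 signal minus the CON mean, for a gene or for the mean of a marker list, circles are CON arrays and triangles CGP arrays. Sema3a, Sema3c and Sema3d lie to the left on the CGP arrays, as does the list of meninges and fibroblasts (8.43 to 8.49 against 8.68 to 8.70), and Epha3 and Epha7 to the right, as does the thalamus list (9.88 to 9.91 against 9.67 to 9.72). Several other lists also lie to the left, such as olfactory mucosa and midbrain dopamine neurons, or to the right, such as choroid plexus and anterior pituitary. The part of any list in the differences of these genes was not tested.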

How the data were processed

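Log2 signals of 28471 probesets on 6 arrays were deposited by the authors as 1 table. Per the labels it was made with RMA in Partek. The study's methods, written for male arrays, give RMA as background correction, quantile normalization and median polish. The labels give no versions. The platform annotation gave 1 gene for 18690 probesets, and 451 of these with a mean below 6 were removed, which left 18239. The highest probeset stood for a gene. All 50 members matched RefSeq by Entrez identifier under the same symbol.

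The groups were compared by lmFit and eBayes of limma 3.58.1 in R 4.3.3, using every array, with Benjamini-Hochberg adjustment across the 18239 probesets. A gene rose or fell when its adjusted p was under 0.05. The steps were also run on simulated data, drawn independently for each gene and array. Such data hold no effects shared by the genes of an array, and their outcome is not used here. Values on every array are given for members with an adjusted or unadjusted p under 0.05 and for the largest difference in each of 13 subfamilies. Each other guidance list is named by its 2 largest differences, and Nrp1 and Nrp2 were added as receptors of class 3. Within the families, members were picked by gene symbol only, but the families and the lists were chosen with earlier results of these data known. The 17 marker lists and 6 guidance lists were written for this work. The number of arrays limits the precision. Figures used matplotlib 3.10.9.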

Additional observations from a re-analysis of the deposited data

How the results depend on the processing

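In all 15 alternatives 0 members passed the adjusted p, and 34 of the 50 members kept their direction throughout. The number of members with an unadjusted p under 0.05 was 4 higher and 4 lower. With a trended and robust prior variance it was 2 and 7, 2 were higher when probesets without a gene or with several were tested as well, 27159 with a mean of at least 6, and with the ordinary test without moderated variance 1 was lower. With 1 array left out, 1 to 3 were higher and 2 to 5 lower. Of the other guidance genes, 0 passed, except 2 higher with the trended and robust prior. With that prior 249 of all probesets passed, against 51 in the main fit. The median of the semaphorins lay between -0.038 and 0.00197, that of the plexins between -0.0522 and -0.0108 and that of the ephrins between -0.0626 and 0.00508 with 1 array left out. Sema7a turned to -0.0109 with array weights, and lay between -0.0273 and 0.0315 with 1 array left out. Plxnc1 lay between -0.0764 and 0.00658 and Plxnd1 between -0.0633 and 0.00754. Ephb1 turned to 0.0273 as the mean of its probesets. The cause of these shifts was not tested, other than fewer arrays or the second probeset. With a filter at 7, Sema3a, Epha1 and Epha3 were not tested. Pairing by replicate number had no basis, since deviations of same-numbered arrays correlated at 0.0776, -0.179 and 0.113. With the replicate block 0 members passed, and 6 probesets in all passed against 51 without it.

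The files hold no detection p. Differences of dim probesets such as Epha3 and Sema3a can be compressed by background, which was not measured here. Guidance genes have paralogs with similar sequences, so that probes can cross-hybridise.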
